A study of Homo sapiens with 6 samples.

Results

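The aldo-keto reductase family around AKR1B10 was taken as 10 genes of 58735 in the expression table, chosen by symbol. They are AKR1B10, AKR1B1 and AKR1B15 of the AKR1B subfamily, AKR1C1, AKR1C2, AKR1C3 and AKR1C4 of the AKR1C subfamily, AKR1A1, and AKR7A2 and AKR7A3 of the AKR7 family. RNA-seq was available for 6 libraries of PC9-BrM3, a derivative of the human lung adenocarcinoma line PC9 with a high propensity to metastasize to the brain. Of these, 3, written below as shAKR1B10, came from cells in which a short hairpin RNA silenced AKR1B10, and 3, written as shNC, from cells with a negative control hairpin. All were in routine culture with no drug named in the labels. The genotype label of the shNC libraries is wild type, and whether the silenced cells were 1 clone or a pool is not given in the sources used here. The question was whether other reductases of the family changed when AKR1B10 was silenced, and by how much compared with its loss.

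Aldo-keto reductases are soluble enzymes that use NADPH to turn aldehydes and ketones into alcohols. AKR1B10 reduces retinal and reactive lipid aldehydes and is known for its high level in many lung cancers, whereas its close relative AKR1B1, aldose reductase, turns glucose into sorbitol. The AKR1C enzymes act mainly on steroids and prostaglandins, AKR1A1 is the general aldehyde reductase, and the AKR7 enzymes reduce succinic semialdehyde and aflatoxin dialdehyde. In lung cancer cells with active NRF2, a transcription factor of the oxidative stress response, AKR1B10 and AKR1C genes are among the genes it is known to raise.

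The members are similar in sequence, which bears on how reads can be assigned. The same 90 bases of coding sequence are given for the AKR1B genes, 5′ to 3′ on the coding strand, with bases that differ from AKR1B10 in capitals. They come from the GENCODE 29 transcripts (GRCh38) and lie in exon 5 of 10 of each gene. AKR1B10 is at chr7:134536650-134536739 on the plus strand, AKR1B15 at chr7:134575420-134575509 on the plus strand and AKR1B1 at chr7:134449030-134449119 on the minus strand.
AKR1B10: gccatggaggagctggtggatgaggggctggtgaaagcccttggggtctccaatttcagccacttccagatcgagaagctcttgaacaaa
AKR1B15: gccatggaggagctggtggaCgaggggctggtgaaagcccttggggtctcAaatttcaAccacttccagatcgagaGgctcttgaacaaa
AKR1B1: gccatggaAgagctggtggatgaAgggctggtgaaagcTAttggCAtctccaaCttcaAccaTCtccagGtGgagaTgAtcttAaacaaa
In this stretch AKR1B15 differed from AKR1B10 at 4 bases and AKR1B1 at 15. Over the aligned coding sequences, with gaps counted as differences, AKR1B10 was 85.9% identical to AKR1B15, with a longest identical run of 116 bases. Of 1032 aligned columns, 886 matched, and the coding lengths were 948 and 1032 bases. AKR1B10 was 76.1% identical to AKR1B1, with a longest run of 22 bases.

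By this measure, which counts gaps, the AKR1C genes are closer to each other, and their coding sequences are equal in length. The stretch given for them lies in exon 5 of 9 of each gene, and capitals mark bases that differ from AKR1C2. AKR1C2 is at chr10:4998658-4998747 on the minus strand, AKR1C1 at chr10:4968822-4968911, AKR1C3 at chr10:5099327-5099416 and AKR1C4 at chr10:5206275-5206364, the last 3 on the plus strand.
AKR1C2: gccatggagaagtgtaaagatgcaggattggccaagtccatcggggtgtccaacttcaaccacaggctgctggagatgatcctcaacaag
AKR1C1: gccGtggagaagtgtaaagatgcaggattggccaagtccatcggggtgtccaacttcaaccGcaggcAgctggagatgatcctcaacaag
AKR1C3: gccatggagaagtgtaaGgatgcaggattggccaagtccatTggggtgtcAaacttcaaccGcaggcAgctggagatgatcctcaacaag
AKR1C4: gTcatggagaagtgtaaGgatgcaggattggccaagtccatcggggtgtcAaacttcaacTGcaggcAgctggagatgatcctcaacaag
AKR1C1 and AKR1C2 were 98.0% identical in coding sequence, and AKR1C3 was 91.4% identical to AKR1C1. The AKR7 pair was 85.0% identical, again with gaps counted. A stretch in exon 3 of 7 is shown for it, with the bases of AKR7A3 that differ from AKR7A2 in capitals, from chr1:19308166-19308255 for AKR7A2 and chr1:19285896-19285985 for AKR7A3, both on the minus strand.
AKR7A2: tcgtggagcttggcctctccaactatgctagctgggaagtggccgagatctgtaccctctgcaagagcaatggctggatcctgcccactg
AKR7A3: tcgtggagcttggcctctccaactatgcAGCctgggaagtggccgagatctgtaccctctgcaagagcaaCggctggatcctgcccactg

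Reads of 150 bases could mostly be told apart between the members. Of the windows of 150 bases in its transcripts, AKR1C1 shared 888 of 8839 (10.0%) with AKR1C2, AKR1C2 shared 910 of 6652 (13.7%) with AKR1C1 or AKR1C3, and AKR1C3 shared 22 of 4951 (0.444%) with AKR1C2. AKR7A3 shared 97 of 1561 windows (6.21%) with AKR7L, a neighboring AKR7 gene. No window of AKR1B10, AKR1B1, AKR1B15, AKR1C4, AKR1A1 or AKR7A2 was found in another gene's transcript. How reads that fit several places were counted is not given in the sources used here, so the split of reads within AKR1C1 and AKR1C2 is uncertain. No member shared an exon position with another gene.

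On genes, each library held 16964504 to 18709028 reads, of which the members took 0.483 to 0.505% in shAKR1B10 and 0.547 to 0.579% in shNC. Values are FPKM, fragment counts scaled to gene length and library size, as deposited. The library size so used was above the reads on genes in every shAKR1B10 library (17669819 against 17253067 in replicate 1). It was below them in every shNC library (18350584 against 18709028 in replicate 1). Changes near 0 depend on this choice. For a gene 1000 bases long, 3 reads amount to 0.163 to 0.177 FPKM, which covers counting error only. Fold changes are on log2(FPKM + 0.1), tested with limma over 13150 genes, those whose mean FPKM was 1 or more, and adjusted by the Benjamini-Hochberg method. The scale understates the change of low genes. One control library stood apart: shNC replicate 1 differed from the other two by a chi-square of 4.88 and 5.42 per gene, while the other pairs within a group differed by 2.45 to 2.70. Without it, 4 members rose and 2 fell, while 2292 of all 13150 genes rose and 2801 fell. The labels do not say that the libraries of a group came from separate cultures, so p-values measure the spread between these libraries, which may be technical. Of 6 epithelial markers, all were expressed, with a summed level of 3167 to 3253 FPKM in shAKR1B10 and 2986 to 3348 FPKM in shNC. Of 6 lung lineage markers, NKX2-1 and surfactant genes among them, 0 reached a mean of 1 FPKM, and the summed level was 0.681 to 1.06 FPKM in shAKR1B10 and 0.656 to 0.890 FPKM in shNC. The 6 markers of other cell types summed to 1.54 to 1.68 FPKM in shAKR1B10 and 2.57 to 2.61 FPKM in shNC, mostly COL1A1, and HBB was at 0.

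AKR1B10 (ENSG00000198074, chromosome 7, 134527592 to 134541408, plus strand, GRCh38) fell to 13.9% of its control level. It was at 108.3, 107.2 and 110.2 FPKM in shAKR1B10 and at 798.7, 775.0 and 772.0 FPKM in shNC. The groups did not overlap, and the libraries of each group lay close together. The means were 109 ± 1.52 and 782 ± 14.6 FPKM (SD, n = 3 each), and the log2 fold change was -2.85 (SE 0.0300, 95% interval -2.92 to -2.78, limma adjusted p = 1.6e-07). Between 3336 and 3407 reads lay behind each silenced value and between 22858 and 25560 behind each control value. AKR1B10 was the 31st most abundant of all genes in shNC and the 280th in shAKR1B10.

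**Figure D1:**
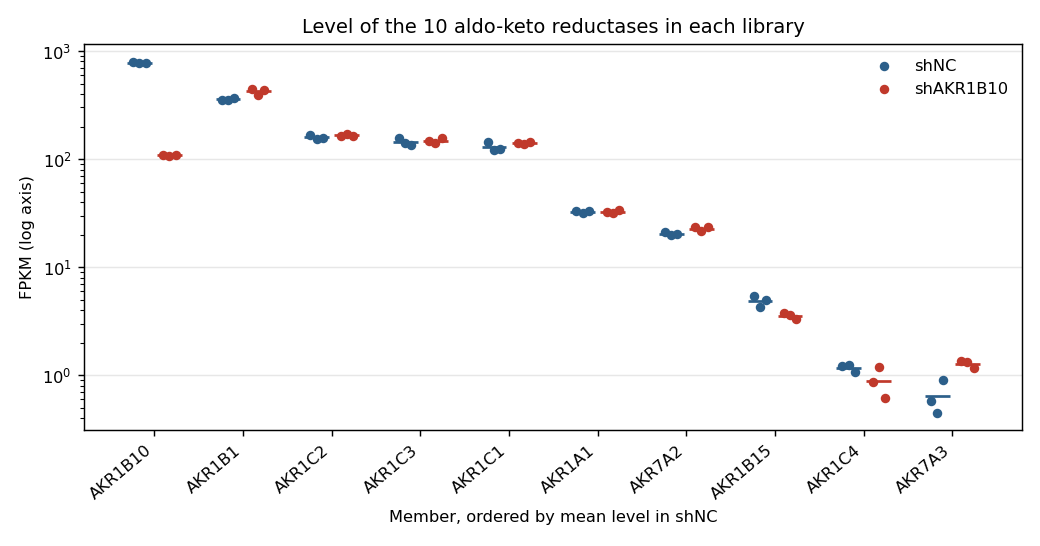
FPKM of the 10 aldo-keto reductases in each of the 3 shNC (blue) and 3 shAKR1B10 (red) libraries on a log axis, with a line at each group mean. AKR1B10 drops from 782 to 109 FPKM, AKR1B1 and AKR7A2 sit slightly higher in shAKR1B10, and the AKR1C1, AKR1C2 and AKR1C3 groups overlap.

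Of the 9 members with a mean FPKM of at least 1, 2 rose, 2 fell and 5 did not pass the test. AKR1B1 and AKR7A2 rose, and AKR1B10 and AKR1B15 fell. Among all 13150 genes tested, 19.4% rose and 23.1% fell, 42.5% in all. The share of members that passed was close to that of all genes, with AKR1B10 counted. The fall of AKR1B10 was the aim of the hairpin, and among the other members 2 rose and only AKR1B15 fell. The excess of falls over all genes depended on the scaling: 45.6% of the genes that passed had risen, but 53.2% did with TPM (2903 rose and 2556 fell) and 50.4% with quantile normalization (2790 and 2751), and the counts of members stayed at 2 and 2. With an absolute log2 fold change above 0.5 required as well, 0 members rose and 1 fell, AKR1B10, against 5.83% and 7.45% of all genes, or 13.3% in all. The median log2 fold change of the 9 members was 0.04, and that of all tested genes was -0.01. The groups did not overlap for the 4 members that passed, 2 higher and 2 lower in shAKR1B10, while over all tested genes they did not overlap for 54.7%, 25.5% higher and 29.2% lower. An exact two-sided permutation test of 3 against 3 libraries cannot go below p = 0.10, the value reached by AKR1B10, AKR1B1, AKR1B15, AKR7A2 and AKR7A3.

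**Figure D2:**
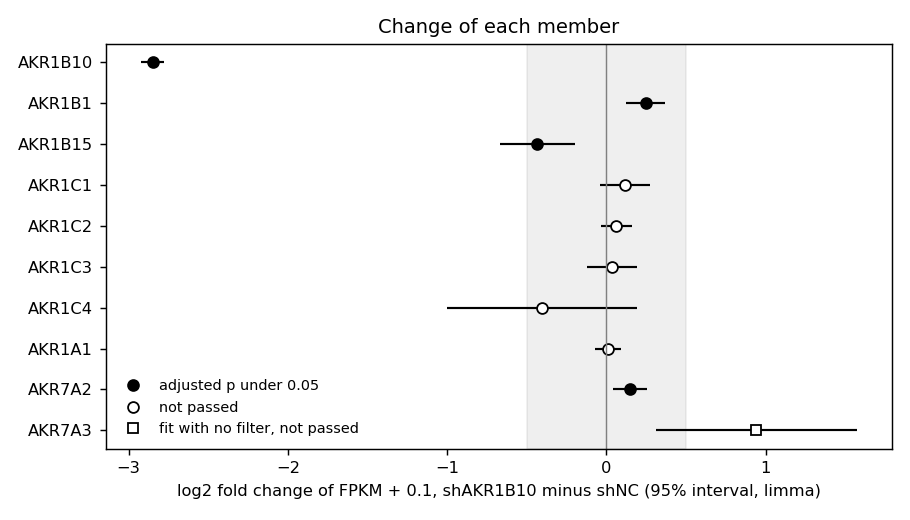
Log2 fold change of each member, shAKR1B10 minus shNC, with its 95% interval from limma, filled where the adjusted p was under 0.05. The grey band marks changes within 0.5, and the square shows AKR7A3, which was fitted without a filter on low values. Apart from AKR1B10 at -2.85, each member that passed lies within the band.

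AKR1B1 (ENSG00000085662, chromosome 7, 134442350 to 134459284, minus strand), aldose reductase, rose to 119% of its control level. It was at 443.2, 394.8 and 434.0 FPKM in shAKR1B10 and at 351.7, 351.8 and 368.4 FPKM in shNC. Every silenced library was above every control library, and the lowest silenced value lay nearest to the controls. The log2 fold change was 0.25 (SE 0.0509, 95% interval 0.12 to 0.37, limma adjusted p = 0.0090), from 357 ± 9.63 to 424 ± 25.7 FPKM (SD, n = 3 each). AKR1B1 was the 72nd most abundant gene in shNC and the 54th in shAKR1B10, where it was the most abundant of the 10 members.

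AKR1B15 (chromosome 7, 134549136 to 134579875, plus strand), which lies beside AKR1B10 and encodes a reductase of steroids and retinal, fell to 73.2% of control at a low level. Its values were 3.80, 3.58 and 3.31 FPKM in shAKR1B10 and 5.38, 4.25 and 4.96 FPKM in shNC. The groups did not overlap, and all 3 silenced values were below 4 FPKM. The log2 fold change was -0.43 (SE 0.0978, 95% interval -0.67 to -0.20, limma adjusted p = 0.0125), with 195 to 223 reads in the silenced libraries and 239 to 328 in the controls. With AKR1B10 and AKR1B15 summed to 1 feature, the log2 fold change was -2.81. The match of the hairpin to AKR1B15 was not tested. Without a filter on low values, the calls of AKR1B1 and AKR1B15 were lost (adjusted p = 0.135 and 0.108 over 58735 genes, limma).

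With all 6 libraries, none of the abundant genes AKR1C1, AKR1C2 and AKR1C3 passed the test. AKR1C1, which inactivates progesterone, was at 140.9, 137.5 and 143.0 FPKM in shAKR1B10 and at 144.2, 121.6 and 124.5 FPKM in shNC. Its highest value was the first control library, above every silenced one, while the other two controls were below them. The log2 fold change was 0.11 (SE 0.0659, 95% interval -0.04 to 0.27, limma adjusted p = 0.208), so that a rise of up to 1.21-fold and a fall to 0.970-fold both lay within the interval.

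AKR1C2, which reduces dihydrotestosterone, was at 164.1, 169.2 and 163.8 FPKM in shAKR1B10 and at 166.9, 153.1 and 156.6 FPKM in shNC. The groups overlapped, again through the first control library. The log2 fold change was 0.06 (SE 0.0401, 95% interval -0.03 to 0.16, limma adjusted p = 0.259). AKR1C3, which makes testosterone and prostaglandin F, was at 147.6, 141.9 and 155.1 FPKM in shAKR1B10 and at 157.8, 142.0 and 134.1 FPKM in shNC, where the first control library was again the highest. Its log2 fold change was 0.04 (SE 0.0656, 95% interval -0.12 to 0.19, limma adjusted p = 0.681). With quantile normalization the values were 0.19 for AKR1C1, 0.12 for AKR1C2 and 0.12 for AKR1C3. None passed (limma adjusted p = 0.0626, 0.104 and 0.132).

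The calls of AKR1C1 and AKR1C2 rested on shNC replicate 1, the library that stood apart over all genes. Without shNC replicate 1, AKR1C1 had a log2 fold change of 0.19 (limma adjusted p = 0.0059) and AKR1C2 one of 0.10 (limma adjusted p = 0.0465). AKR1C3 (0.10, limma adjusted p = 0.150) and AKR1C4 (-0.37, limma adjusted p = 0.365) still did not pass without it. With the FPKM of AKR1C1 to AKR1C4 summed to 1 feature, the log2 fold change was 0.07 (95% interval -0.06 to 0.20, limma adjusted p = 0.338). With their reads added before the division by length, so that a shared read counted the same in any of them, it was 0.08 (95% interval -0.05 to 0.21, limma adjusted p = 0.290). Without shNC replicate 1, the summed FPKM gave 0.13 (95% interval 0.06 to 0.19, limma adjusted p = 0.0173).

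AKR1C4, the liver form of the subfamily, was at a low level. It was at 0.857, 1.19 and 0.619 FPKM in shAKR1B10 and at 1.22, 1.24 and 1.06 FPKM in shNC, from 21 to 43 reads a library. The groups overlapped, and the silenced libraries spread more widely than the controls. The log2 fold change was -0.40 with a wide interval of -0.998 to 0.19 (SE 0.248, limma adjusted p = 0.234), which also holds the change seen for AKR1B15. It was -0.19 without shAKR1B10 replicate 3 and -0.61 without shAKR1B10 replicate 2, and passed in neither fit (limma adjusted p = 0.512 and 0.0927).

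AKR1A1, the general aldehyde reductase, was at 32.3, 31.9 and 33.5 FPKM in shAKR1B10 and at 32.8, 31.7 and 32.8 FPKM in shNC. The groups overlapped, and no value stood apart. The log2 fold change was 0.01 with the interval -0.07 to 0.09 (SE 0.0338, limma adjusted p = 0.861). It depended on the scaling, at 0.05 with TPM (limma adjusted p = 0.308) and 0.090 with quantile normalization (limma adjusted p = 0.0695), and passed in neither.

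The AKR7 genes lie next to each other on chromosome 1. AKR7A2, which reduces succinic semialdehyde, was at 23.4, 21.4 and 23.3 FPKM in shAKR1B10 and at 20.9, 20.02 and 20.4 FPKM in shNC. The groups did not overlap, by a narrow margin. AKR7A2 rose with a log2 fold change of 0.15 (SE 0.0450, 95% interval 0.04 to 0.25, limma adjusted p = 0.0372). The call was lost without a mean-variance trend (adjusted p = 0.0648), with voom (adjusted p = 0.0539), without a filter (adjusted p = 0.180), and without any of 4 libraries, namely shAKR1B10 replicate 1 (adjusted p = 0.114) or 3 (0.113) and shNC replicate 2 (0.107) or 3 (0.0863), each from limma.

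AKR7A3, an aflatoxin aldehyde reductase, had the largest fold difference after AKR1B10, at a level too low for the filter. It was at 1.36, 1.33 and 1.15 FPKM in shAKR1B10 and at 0.574, 0.450 and 0.897 FPKM in shNC. These values rest on 41, 41 and 35 reads against 18, 13 and 28. The groups did not overlap, as for 8.54% of all 58735 genes in this direction, and the mean in shAKR1B10 was 199.9% of control. Fitted without a filter, the log2 fold change was 0.94 (95% interval 0.31 to 1.57) and did not pass (limma adjusted p = 0.134 over 58735 genes, of which 6.06% passed). Of 13 further settings, all chosen after the values were seen, 3 passed and 10 did not. Those that passed were a filter at a mean of 0.5 FPKM (limma adjusted p = 0.0248), voom over genes with any read (0.0176) and the fit without shNC replicate 3 (0.0380). The others gave adjusted p up to 0.380, and with a pseudocount of 1 the log2 fold change was 0.48. AKR7L, with which AKR7A3 shares 6.21% of its windows, had 28 to 42 reads a library in shAKR1B10 and 16 to 21 in shNC, also without overlap, and the part of shared reads in either difference was not tested.

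**Figure D3:**
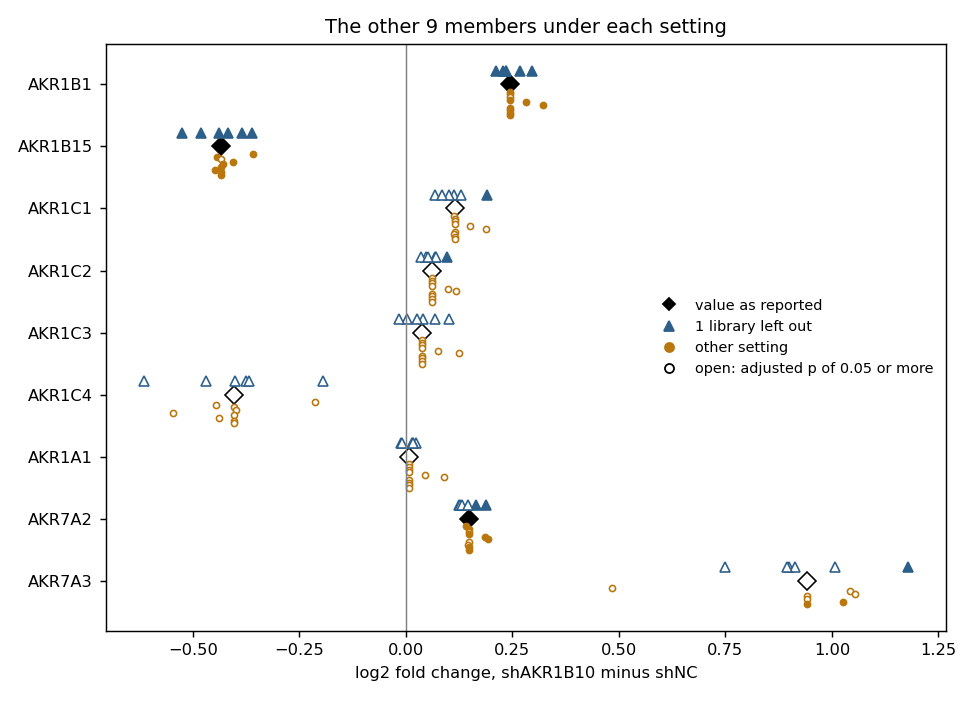
Log2 fold change of the 9 members other than AKR1B10 as reported (diamonds), with 1 library left out (triangles) and under each other setting (circles), filled where the adjusted p was under 0.05. AKR1B1 stays between 0.21 and 0.32 and AKR1B15 between -0.53 and -0.36, while AKR1A1 and AKR1C3 cross 0 when a library is left out and AKR7A3 depends on the setting.

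The order of the levels changed mainly through AKR1B10. In shNC the order of mean FPKM was AKR1B10, AKR1B1, AKR1C2, AKR1C3, AKR1C1, AKR1A1, AKR7A2, AKR1B15, AKR1C4 and AKR7A3, and AKR1C2 overlapped with AKR1C3, as did AKR1C3 with AKR1C1. In shAKR1B10, AKR1B1 came first and AKR1B10 came 5th, below AKR1C1. There, AKR1C3 overlapped with AKR1C1 and AKR7A3 with AKR1C4. All other neighbors in either order were separated in every library. These orders hold for the deposited gene lengths. Divided by the length of the coding transcript, AKR1C3 lay above AKR1C2, at 372 against 285 in shAKR1B10 and 363 against 273 in shNC.

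The summed level of the members fell, and the gain of the 9 others was smaller than the AKR1B10 loss. All 10 together were at 1065.7, 1010.0 and 1068.0 FPKM in shAKR1B10 and at 1680.1, 1601.2 and 1615.8 FPKM in shNC, or 64.2% of control by the means of 1048 ± 32.8 and 1632 ± 42.01 FPKM (SD, n = 3 each). AKR1B10 took 47.9% of this sum in shNC and 10.4% in shAKR1B10. The 9 others were at 957.4, 902.8 and 957.8 FPKM in shAKR1B10 and at 881.5, 826.1 and 843.8 FPKM in shNC. These groups did not overlap, although the lowest silenced sum was close to the highest control sum.

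The means of the 9 others were 939 ± 31.6 and 850 ± 28.3 FPKM (SD, n = 3 each), a difference of 88.9 FPKM against an AKR1B10 loss of 673 FPKM, or 13.2% of it. AKR1B1 made up most of the difference with 66.7 FPKM, or 9.91% of the loss. AKR1C1 added 10.3 FPKM, AKR1C2 6.83 FPKM, AKR1C3 3.55 FPKM and AKR7A2 2.23 FPKM, of which only the AKR7A2 difference passed the test. By subfamily, the AKR1B genes summed to 46.9% of control. The AKR1C genes were at 455 ± 6.59 FPKM against 435 ± 30.6 FPKM (SD, n = 3 each), with overlapping groups, although scaled to TPM they did not overlap and were higher in shAKR1B10.

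**Figure D4:**
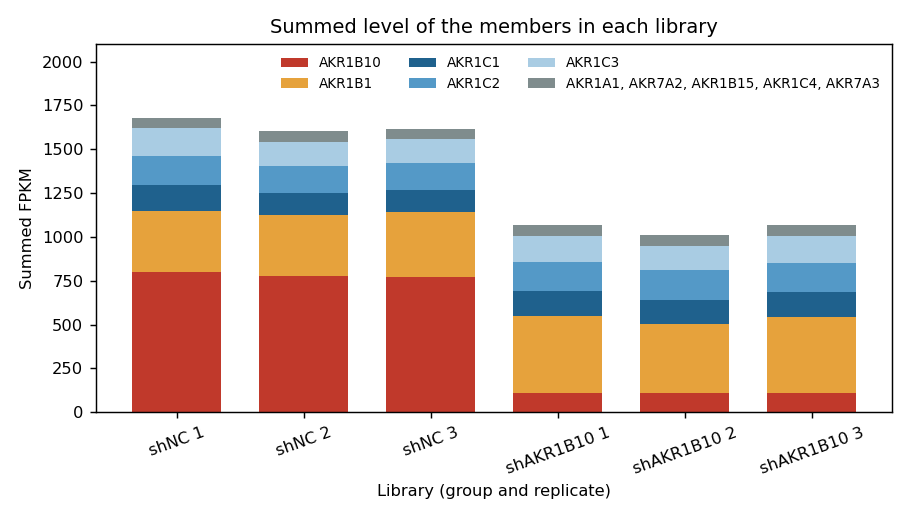
Summed FPKM of the members in each library, stacked by gene, with AKR1B10 at the bottom. The 3 shNC libraries reach 1601 to 1680 FPKM and the 3 shAKR1B10 libraries 1010.0 to 1068 FPKM, and the AKR1B10 segment shrinks by more than the sum does, as the 9 others rise slightly.

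These shares depend on the gene length by which the reads were divided. The deposited length was 1744 bases for AKR1B10 but 3660 bases for AKR1B1 and 8765 bases for AKR1C1, against 1590, 1409 and 6705 bases for the coding transcripts from which the sequences above were taken. Divided by the length of the coding transcript, a choice made after the values were seen, AKR1B1 was the most abundant member in shNC too (928 ± 25.0 against 858 ± 16.0 for AKR1B10, on the FPKM scale with that length, SD, n = 3 each). The 9 others then gained 28.01% of the AKR1B10 loss, and the sum of all 10 stood at 80.5% of control. With no division by length, the gain was 33.7% of the loss in reads scaled to library size and the sum 86.2% of control. The fold change of a single gene does not depend on its length, and the 9 others summed to between 109% and 113% of control with the deposited length, the coding transcript length, no length division and TPM. The sums were not computed with quantile normalization.

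The other aldo-keto reductase superfamily genes in the table were 21, of which 3 had a mean FPKM of at least 1. The pseudogene AKR1C7P fell, with a log2 fold change of -0.37 (limma adjusted p = 0.0426), from 6.06 to 7.06 FPKM in shNC to 4.22 to 5.63 FPKM in shAKR1B10. KCNAB3, a potassium channel beta subunit, fell with a log2 fold change of -0.53 (limma adjusted p = 0.0434), and KCNAB2, another beta subunit, had a value of 0.14 (limma adjusted p = 0.162). Without a filter on low values, the calls of AKR1C7P and KCNAB3 were lost (limma adjusted p = 0.300 and 0.142). Of the rest, 8 had no read in any library and 6 had 1 to 29 reads in all. The processed copy AKR1B10P1 had 0 reads in each shAKR1B10 library and 3, 1 and 0 reads in shNC.

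The members of a subfamily lie side by side, so that genes near them were counted too. Within 200 kb of the AKR1B genes, 5 other genes were tested, of which 2 rose and 0 fell. Around the AKR1C genes, 2 of 6 rose and 3 fell, and around the AKR7 genes, 0 of 7 rose and 2 fell. The shares of all tested genes were 19.4% higher and 23.1% lower.

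The gene whose values lay closest to those of AKR1B10 over the 6 libraries was HPRT1, which salvages purine bases. The distance, the root mean square of the centered log2 difference, was 0.151. As the libraries of a group lay close together, this distance mostly reflects the group difference, -2.58 for HPRT1 and -2.85 for AKR1B10. HPRT1 was at 7.11, 7.26 and 8.37 FPKM in shAKR1B10 and at 46.3, 43.7 and 47.6 FPKM in shNC. Next came LINC00431 (0.240), MZT1, a gamma-tubulin partner (0.333), the pseudogene AL592114.2 (0.378) and TNC, the matrix protein tenascin C (0.404). By log2 fold change, AKR1B10 was the 6th lowest of the 13150 genes.

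Enzymes outside the family that handle the same kind of substrates changed in both directions. Of 34 other enzymes that act on carbonyl compounds, most of them reductases or dehydrogenases, 31 were tested. Of these, 9 rose and 7 fell, with a median log2 fold change of 0.01, while 19.4% of all tested genes rose and 23.1% fell. TP53I3, a quinone reductase induced by p53, rose from 2.62 to 7.14 FPKM (log2 fold change 1.41), and DHRS2, a short-chain reductase, from 0.981 to 1.88 FPKM (0.88). HSD17B11, a steroid and lipid droplet dehydrogenase, fell from 8.73 to 3.47 FPKM (-1.31), GLO1, which removes methylglyoxal, from 51.3 to 34.3 FPKM (-0.58), and SORD from 8.60 to 6.06 FPKM (-0.50). The largest limma adjusted p of these 5 genes was 0.0026.

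Aldehyde dehydrogenases, oxidize many of the aldehydes that the members reduce. Of 19, 15 were tested, 6 rose and 2 fell, with a median of 0.09, while 19.4% of all tested genes rose and 23.1% fell. ALDH3A1 was at 160.9, 153.5 and 159.6 FPKM in shAKR1B10 and at 86.3, 95.9 and 93.1 FPKM in shNC (log2 fold change 0.78, limma adjusted p = 5.5e-05). This gain of 66.2 FPKM was close in size to that of AKR1B1. ALDH3B2 rose from 8.49 to 14.4 FPKM (0.76) and ALDH1L1, a folate enzyme, fell from 1.46 to 0.739 FPKM (-0.89). The summed level of the 19 genes was 544 to 549 FPKM in shAKR1B10 and 434 to 441 FPKM in shNC, without overlap.

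The polyol pathway begins with AKR1B1, and its other genes did not share one direction. Of 11 genes of polyol and fructose use, 9 were tested, 4 rose and 2 fell, beside 19.4% and 23.1% of all genes. SORD, the enzyme that takes sorbitol on to fructose, fell from 9.04, 8.32 and 8.44 FPKM in shNC to 5.61, 6.47 and 6.10 FPKM in shAKR1B10, while AKR1B1 rose. The other gene of this list that fell was GLO1, given above (-0.58). Of 27 prostaglandin and steroid genes related to the substrates of the AKR1C enzymes, 15 were tested, 6 rose and 4 fell, beside the same shares of all genes. HSD17B7 (0.50) and SULT2B1 (0.65), of cholesterol synthesis and steroid sulfation, rose by more than 0.5.

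**Figure D5:**
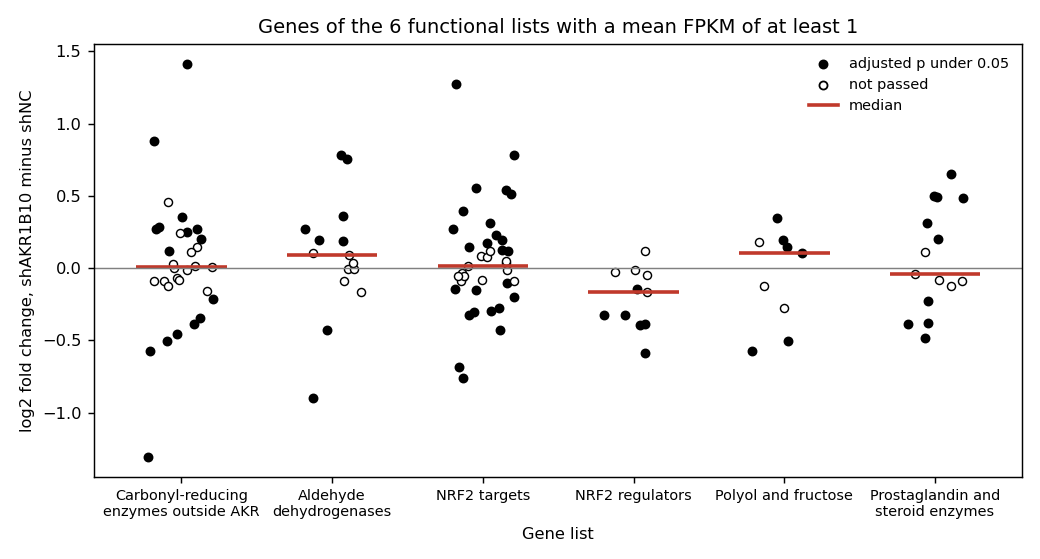
Log2 fold change of each tested gene of the 6 functional lists, shAKR1B10 minus shNC, filled where the adjusted p was under 0.05, with a red line at the list's median. Each list has genes on both sides of 0, and the medians lie between -0.17 and 0.10.

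NRF2 targets outside the family were examined because several members are among its known targets. Of 40, 39 were tested, 14 rose and 11 fell, with a median of 0.02. HMOX1, heme oxygenase, rose from 4.28, 4.40 and 5.42 FPKM in shNC to 12.4, 10.7 and 11.4 FPKM in shAKR1B10 (log2 fold change 1.28, limma adjusted p = 0.00017). ALDH3A1, given above, is on this list too (0.78), and IDH1 rose from 51.3 to 75.1 FPKM (0.55). NR0B1 fell from 32.4 to 19.2 FPKM (-0.76) and SRXN1, sulfiredoxin, from 24.4 to 15.1 FPKM (-0.68). By more than 0.5, 5 of these targets rose and 2 fell. Of 11 genes that regulate NRF2, 0 rose and 6 fell, with a median of -0.17. Over all genes tested, 19.4% rose and 23.1% fell, with a median of -0.01. BTRC, a ubiquitin ligase subunit, fell from 5.21 to 3.44 FPKM (-0.58). The other 5 that fell, named after their values were seen, were the small MAF partners MAFF, MAFG and MAFK, the repressor BACH1 and the scaffold CUL3. NFE2L2, which encodes NRF2, had a value of -0.05 (limma adjusted p = 0.504), and KEAP1, its inhibitor, one of -0.03 (limma adjusted p = 0.711). Over the 6 lists without the members, 109 genes were tested, of which 33.0% rose and 25.7% fell, against 19.4% and 23.1% of all genes. The lists were written with earlier results of these data known, which limits every comparison of a list with all genes.

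Promoters of 300 bases were available from RefSeq (GRCh38.p14) for 8 of the 10 members, all but AKR1B10 and AKR1B15. The core of the antioxidant response element that NRF2 binds, TGACNNNGC on either strand, was found in 13.3% of 35116 promoters and, among the members, in AKR7A2 only. It is shown in capitals in the 29 bases around it, at chr1:19312295-19312323 on the minus strand, where it begins 167 bases before the start of the gene and reads as the reverse complement.
AKR7A2: gtcaaggcccGCCGGGTCAgctgaccgcg
A match is a description of these letters and not a bound site. The AP-1 element TGANTCA was in 7.71% of all promoters and in none of the 8 members.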

How the data were processed

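RNA-seq was analysed in 3 shAKR1B10 and 3 shNC libraries of PC9-BrM3, grouped by the sample titles. Per the submitters' processing notes, reads were aligned with HISAT2 2.0.5 and counted per gene with featureCounts 1.5.0-p3. The authors deposited FPKM values with gene length and position, and replicates were not pooled. The handling of strand and of reads with several matches is not given in the sources used here. Identifiers and positions of all 58735 genes matched GENCODE 29 (GRCh38). FPKM multiplied by gene length was a whole multiple of 1 step per library, the worth of 1 read, for 100% of values (tolerance 0.01 reads), which gave the reads.

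The comparison used limma 3.58.1 (lmFit, eBayes with a trend; R 4.3.3) on log2(FPKM + 0.1) for genes whose mean FPKM was 1 or more, with Benjamini-Hochberg adjustment over 13150 genes. A gene rose or fell at an adjusted p under 0.05. The code was tested on simulated data. Sequences were read from GENCODE transcripts and RefSeq promoters and aligned with Biopython 1.88 in Python 3.11.15. Coding sequences were aligned in place of the planned proteins. No sequence of the hairpin was used here.

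The members, gene lists and tests were chosen with earlier results of these data known. Besides the members, superfamily genes whose mean FPKM was 1 or more were named, as were, from each list, the 3 lowest and 3 highest genes past an adjusted p of 0.05 and an absolute log2 fold change of 0.5, NFE2L2 and KEAP1, and the 5 genes with values closest to AKR1B10. AKR7L, AKR1B10P1 and COL1A1 were named after their values were seen. No shift shared by libraries of the same number was seen: the correlations of their deviations from the group means were -0.0155, 0.00388 and 0.00383. Whether such libraries were handled together is not given in the sources used here. The alternatives were other pseudocounts, filters, scalings, variance models and gene sets, voom on the reads, a fit blocked by replicate number, and each library left out.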

Additional observations from a re-analysis of the deposited data

How the results depend on the processing

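AKR1B10 kept its direction and its call under all 16 alternatives, with log2 fold changes between -2.86 and -2.77, and AKR1C4 did not pass under any of 15. Of the members, 0 rose and 1 fell without a filter, 1 fell with a mean FPKM of at least 5, where AKR1B15 was not tested, and 1 rose without a trend and with voom. Over all genes, 1558 of 58735 rose and 2000 fell without a filter. With a mean of at least 5, 2224 of 7355 fell, and of 13150 genes 2451 rose without a trend and 2873 with voom. With 1 library left out, AKR1A1 lay between -0.0118 (without shAKR1B10 replicate 3) and 0.0231, reversing also without shNC replicate 2 (-0.00838), and AKR1C3 between -0.0156 (without shNC replicate 3) and 0.102. In these fits, between 1 and 4 members rose, and between 1 and 2 fell by more than 0.5. The second was AKR1B15, at -0.53 without shNC replicate 2. Of all 13150 genes in the same fits, between 1918 and 2292 rose, and between 947 and 971 fell by more than 0.5. The gain of the 9 other members was 13.2% of the AKR1B10 loss, 28.01% with the length of the coding transcript, 33.7% with no length scaling and between 11.3% and 15.9% with 1 library left out. The summed AKR1C genes passed only without shNC replicate 1 (0.13) among 10 alternatives.

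Of all genes, 497 rose past 0.5 with a pseudocount of 1. Without a filter, 1558 rose and 2000 fell, and 17 genes of the functional lists fell. With a mean FPKM of at least 5, 1689 rose, 290 of them past 0.5, and 532 fell past 0.5. Past a log2 fold change of 1, 168 rose and 205 fell. The filter and the thresholds set how many genes could be counted. The other causes were not tested. With the replicate number as a block, 2 members rose and 2 fell, the same calls as without it, with a largest limma adjusted p of 0.0404 for AKR7A2. No shift shared by same-numbered libraries was seen, as no correlation between them exceeded 0.00388. That cannot show whether they were handled together. AKR1C4 and AKR7A3 rest on at most 43 reads a library, and their intervals are the widest of the members.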
